A study of Homo sapiens with 36 samples.

Results

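The transcripts of 10 genes for extracellular proteases and their inhibitors were followed in HMC3 cells, an established human microglial line, exposed to perfluorooctane sulfonate (PFOS), a long-lived fluorinated surfactant. The genes were the matrix metalloproteinases MMP1, MMP2, MMP3 and MMP14, the tissue inhibitors TIMP1, TIMP2 and TIMP3, and the related proteases ADAM9, ADAM17 and ADAMTS1. They were taken by symbol from the 25344 rows of the RNA-seq count table, and 8 of the 10 were among the 9847 genes with enough counts to test, MMP2 and MMP3 being too low. There were 6 groups of 3 libraries. The exposure lasted 24 h, with vehicle alone or with PFOS at 25 µM or 50 µM, and cells were either collected then or kept for another 24 h without PFOS, called recovery here. The cell line, its culture and the 24 h exposure were common to all groups, and vehicle cultures were carried through both times. The labels call the replicates biological without saying that they were separate cultures, so the spread behind each p-value may be technical.

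Matrix metalloproteinases are zinc-dependent enzymes that are made as inactive precursors and cut collagens and other matrix proteins once their prodomain is removed. TIMPs block the active site of matrix metalloproteinases, and TIMP3 also inhibits ADAM17. ADAM proteases sit in the plasma membrane and release the outer parts of other membrane proteins, and ADAMTS proteases are secreted and bind the matrix. In the brain such proteases are known for remodelling the matrix around cells and for releasing cytokines, growth factors and their receptors from the surface of microglia. Transcript counts do not measure how much of a protease is secreted or active.

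Total counts per library ranged from 582233 to 4346627. The 3 recovery libraries of 50 µM PFOS stood apart: ribosomal protein genes, of which 79 were counted, took 2.92%, 7.50% and 4.98% of their counts, against 1.19% to 2.41% in the other 15 libraries. Markers of microglia were nearly absent in every group. Of 12 listed, CX3CR1, AIF1, TYROBP and C1QA had 0 counts, P2RY12 had 8 and PTPRC 2 over all 18 libraries, and CD68, a lysosomal protein, held 1036 of the list's 1104 counts. The summed level of the list was 52.8 to 79.5 CPM (counts relative to TMM-scaled library size) in the 6 libraries of 50 µM PFOS and 17.4 to 34.3 CPM in the other 12. The summed level of mesenchymal markers, 8 listed with COL3A1 at 0, moved the other way. Their sum was 1691 to 1959 CPM at 50 µM PFOS for 24 h against 3513 to 3607 CPM in vehicle, and 1113 to 2425 CPM at 50 µM after recovery against 2747 to 3467 CPM in vehicle. COL1A1, which fell, held 46066 of the list's 96118 counts. VIM, with 19840 counts, did not fall. Its log2 change at 50 µM was 0.07 for 24 h (adjusted p = 0.752) and 0.23 after recovery (adjusted p = 0.192, both edgeR). The epithelial list, 4 genes of which none was at 0, summed to 882 to 957 CPM at 50 µM for 24 h against 702 to 757 CPM in vehicle, and to 1038 to 1306 CPM at 50 µM after recovery against 540 to 584 CPM in vehicle, mostly from the keratin KRT18. The 4 neuronal markers summed to 9.73 to 16.3 CPM at 50 µM for 24 h against 5.88 to 6.13 CPM in vehicle, with SNAP25, a synaptic protein, 1.74 ± 0.42 higher on the log2 scale (adjusted p = 0.00599, edgeR), and overlapped after recovery. The 4 endothelial markers, with 50 counts over all 18 libraries, summed to 0 CPM at 50 µM after recovery against 0.766 to 1.57 CPM in vehicle. With 0 counts, these 50 µM libraries could still hold up to 3.57, 2.44 and 3.97 CPM, so no endothelial shift was measured. The part of these shifts in the results below was not tested, and fewer cells of a kind cannot be told apart from less RNA per cell in bulk libraries.

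Sequence around the start of transcription was available for 4 of the 10 genes, MMP14, TIMP1, TIMP3 and ADAM17 (RefSeq, GRCh38.p14, 250 bases before the start and 50 after it). The windows of MMP14, TIMP1 and ADAM17 are shown because these 3 genes rose at 50 µM PFOS. The MMP14 window lies at chr14:22836335-22836634 on the plus strand, that of TIMP1 at chrX:47582186-47582485 on the plus strand and that of ADAM17 at chr2:9555781-9556080 on the minus strand, each printed 5′ to 3′ along the gene. Capitals mark GC boxes (GGGCGG on either strand) and, in TIMP1, the AP-1 variant TGAGTAA.
MMP14: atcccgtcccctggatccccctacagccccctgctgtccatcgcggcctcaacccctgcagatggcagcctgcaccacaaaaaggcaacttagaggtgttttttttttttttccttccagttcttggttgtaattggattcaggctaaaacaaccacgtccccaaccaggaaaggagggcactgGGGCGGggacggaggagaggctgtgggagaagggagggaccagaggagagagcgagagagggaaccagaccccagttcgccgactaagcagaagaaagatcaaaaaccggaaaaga
TIMP1: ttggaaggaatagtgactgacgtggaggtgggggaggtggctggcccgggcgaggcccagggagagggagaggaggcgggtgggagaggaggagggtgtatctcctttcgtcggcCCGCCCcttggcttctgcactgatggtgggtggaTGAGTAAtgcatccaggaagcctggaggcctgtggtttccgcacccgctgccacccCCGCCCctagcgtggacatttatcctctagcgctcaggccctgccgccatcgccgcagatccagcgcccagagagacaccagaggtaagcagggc
ADAM17: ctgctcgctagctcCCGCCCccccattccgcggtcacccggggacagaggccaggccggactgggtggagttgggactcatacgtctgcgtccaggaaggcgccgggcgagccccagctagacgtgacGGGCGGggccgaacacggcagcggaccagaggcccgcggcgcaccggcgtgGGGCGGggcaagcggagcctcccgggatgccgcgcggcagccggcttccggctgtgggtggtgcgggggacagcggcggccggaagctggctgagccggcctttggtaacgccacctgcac
The GC box is the letter pattern bound by Sp1-family factors, and the window of MMP14 held 1, that of TIMP1 2, that of ADAM17 3 and that of TIMP3 5. Of 27305 windows of the same length, 44.6% held at least 1. The AP-1 variant, which was found in TIMP1 at -101 from the start, occurred in 2.62% of all windows. The AP-1 consensus TGANTCA (7.76% of windows) and the TATA box letters TATAAA (12%) had no match in these 4 windows. No motif overlapped another in the 3 printed windows. A match is a stretch of letters, not a measured binding site.

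At 50 µM PFOS for 24 h MMP1, the interstitial collagenase, rose 84.9-fold over vehicle, MMP14, ADAM17 and TIMP1 rose by smaller factors, and ADAM9 fell. At 25 µM the change that passed the test was that of MMP1. After recovery from 50 µM, MMP1 and TIMP1 were still higher than in vehicle, whereas MMP14 and ADAM17 were within the spread of vehicle or below it. A gene is called changed where its Benjamini-Hochberg adjusted p over all tested genes was under 0.05 in edgeR's quasi-likelihood test. At 50 µM for 24 h, 4 tested members were called higher and 1 lower, where 18.8% of all tested genes were called, 9.18% higher and 9.59% lower. At 25 µM for 24 h 1 member was called, against 1.24% of all genes. After recovery 2 members were called higher at 50 µM, against 28.4% of all genes, a share near that background. At 25 µM after recovery 0 members and 0% of all genes were called by edgeR, where 1 member had an unadjusted p under 0.05 and DESeq2 called 0 members. The libraries of PFOS and vehicle did not overlap for 4 members at 25 µM and 6 at 50 µM for 24 h, against 22.9% and 41.4% of all genes, and for 0 and 3 members after recovery, against 13.8% and 31.3%. The 25 µM and 50 µM comparisons of 1 time share their vehicle libraries. MMP1 had enough counts to test through libraries of PFOS alone, so its part in these numbers of members already required a difference. The median log2 change of the 8 tested members was 0.23 at 25 µM and 0.51 at 50 µM for 24 h, -0.02 at 25 µM and -0.13 at 50 µM after recovery, beside medians over all genes between -0.05 and 0.01.

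**Figure D1:**
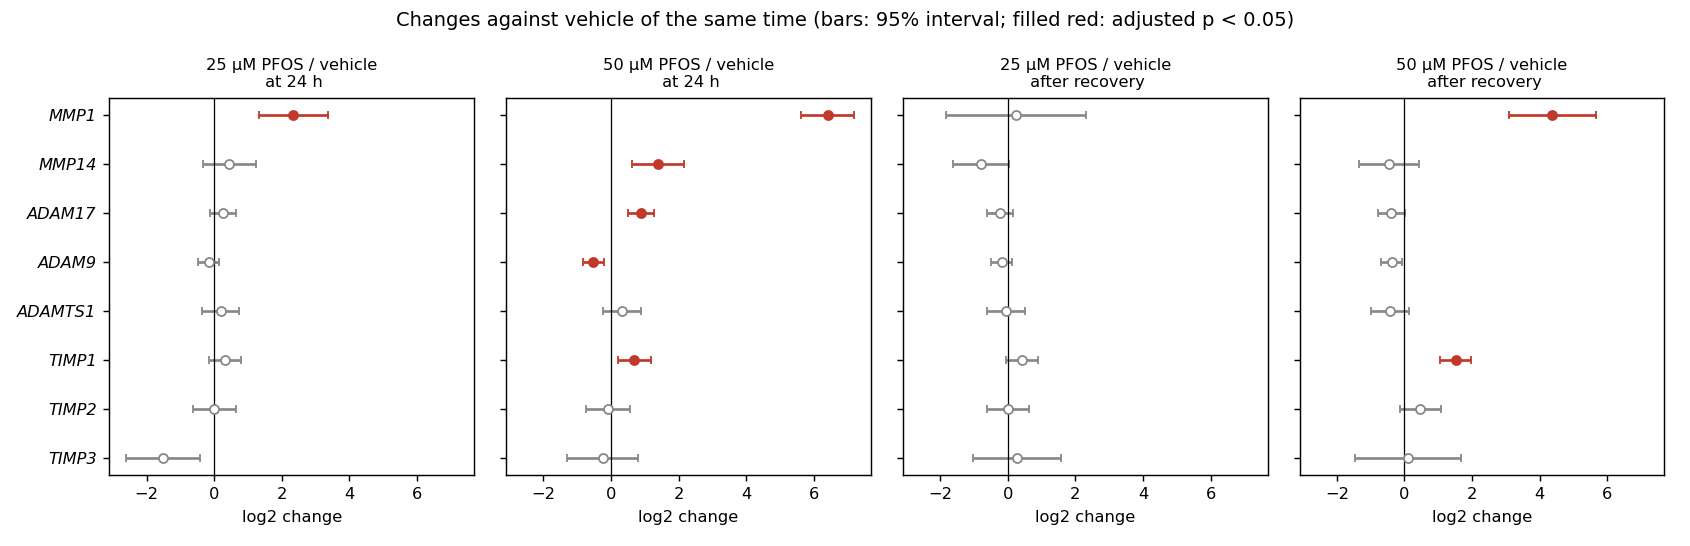
Log2 change of the 8 tested genes against vehicle of the same time (x axis) in the 4 comparisons with vehicle, with 95% intervals. The intervals use 12 degrees of freedom, fewer than the test, so they can reach 0 where an unadjusted p is under 0.05. Filled red points passed an adjusted p of 0.05 in edgeR. MMP1 lies farthest from 0 at 50 µM PFOS, at 6.41 for 24 h and 4.38 after recovery, and the changes of the other 7 genes lie between -1.51 and 1.51.

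MMP1 cleaves fibrillar collagens. In the 24 h libraries it had 2, 5 and 4 counts in vehicle, 14, 26 and 14 counts at 25 µM PFOS, and 130, 135 and 273 counts at 50 µM PFOS. Scaled for depth these were 2.35, 1.80 and 1.18 CPM in vehicle, 10.1, 7.01 and 8.81 CPM at 25 µM and 135, 146 and 139 CPM at 50 µM. The 3 groups did not overlap, and the 50 µM libraries lay close together. MMP1 rose by 6.41 ± 0.36 on the log2 scale at 50 µM against vehicle (SE, n = 3 per group, adjusted p = 1.76e-10, edgeR) and by 2.34 ± 0.47 at 25 µM (adjusted p = 0.0105, edgeR). These SEs were derived from the test's F statistic and can understate counting error where vehicle has few counts, as for MMP1. Between the doses MMP1 was 4.07 ± 0.29 higher at 50 µM than at 25 µM (adjusted p = 1.71e-08, edgeR), where 2 members and 7.4% of all genes were called. MMP1 passed the filter on low counts through libraries of PFOS alone, 8 of which exceeded the limit of the filter and none of which was vehicle, so its passing already required a difference. The 25 µM call was lost without vehicle replicate 2 (adjusted p = 0.0612) or vehicle replicate 3 (adjusted p = 0.147) and in counts thinned to the depth of the shallowest library (adjusted p = 0.461, edgeR).

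After recovery MMP1 had 1, 0 and 3 counts in vehicle, 0, 2 and 2 counts at 25 µM PFOS, and 8, 20 and 7 counts at 50 µM PFOS. The levels were 9.30, 18.2 and 9.72 CPM at 50 µM, and at most 2.16 CPM in the 6 libraries of the other recovery groups. All 3 libraries of 50 µM were above these 6, and the 25 µM and vehicle libraries were mixed. MMP1 was 4.38 ± 0.59 higher on the log2 scale at 50 µM than in vehicle (adjusted p = 2.94e-05) and 4.12 ± 0.61 higher than at 25 µM (adjusted p = 0.000441, both edgeR, n = 3 per group). In the comparison of doses after recovery 2 members were called, against 22.1% of all genes. A fit to the 6 libraries of these doses alone called 0 of its 8248 tested genes, so its 0 members are not particular to this set. In that fit TIMP1 had an adjusted p of 0.079 (edgeR), and MMP1 was below its filter. At 25 µM the change against vehicle was 0.26 ± 0.95 with a 95% interval of -1.81 to 2.33 (adjusted p = 0.986, edgeR). The difference from the 25 µM change at 24 h was -2.08 ± 1.19 and did not pass the test (adjusted p = 0.9997, edgeR). Leaving out the 50 µM replicate with the highest ribosomal share, replicate 2, left MMP1 at 3.95 (adjusted p = 0.000211, edgeR). The change at 50 µM was smaller after recovery than at 24 h by 2.03 ± 1.07, which did not pass the test (adjusted p = 0.19, edgeR). In order of mean level, MMP1 was highest at 50 µM for 24 h, followed by 50 µM after recovery and 25 µM for 24 h, whose libraries overlapped, and then by vehicle at 24 h, 25 µM after recovery and vehicle after recovery, which also overlapped.

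**Figure D2:**
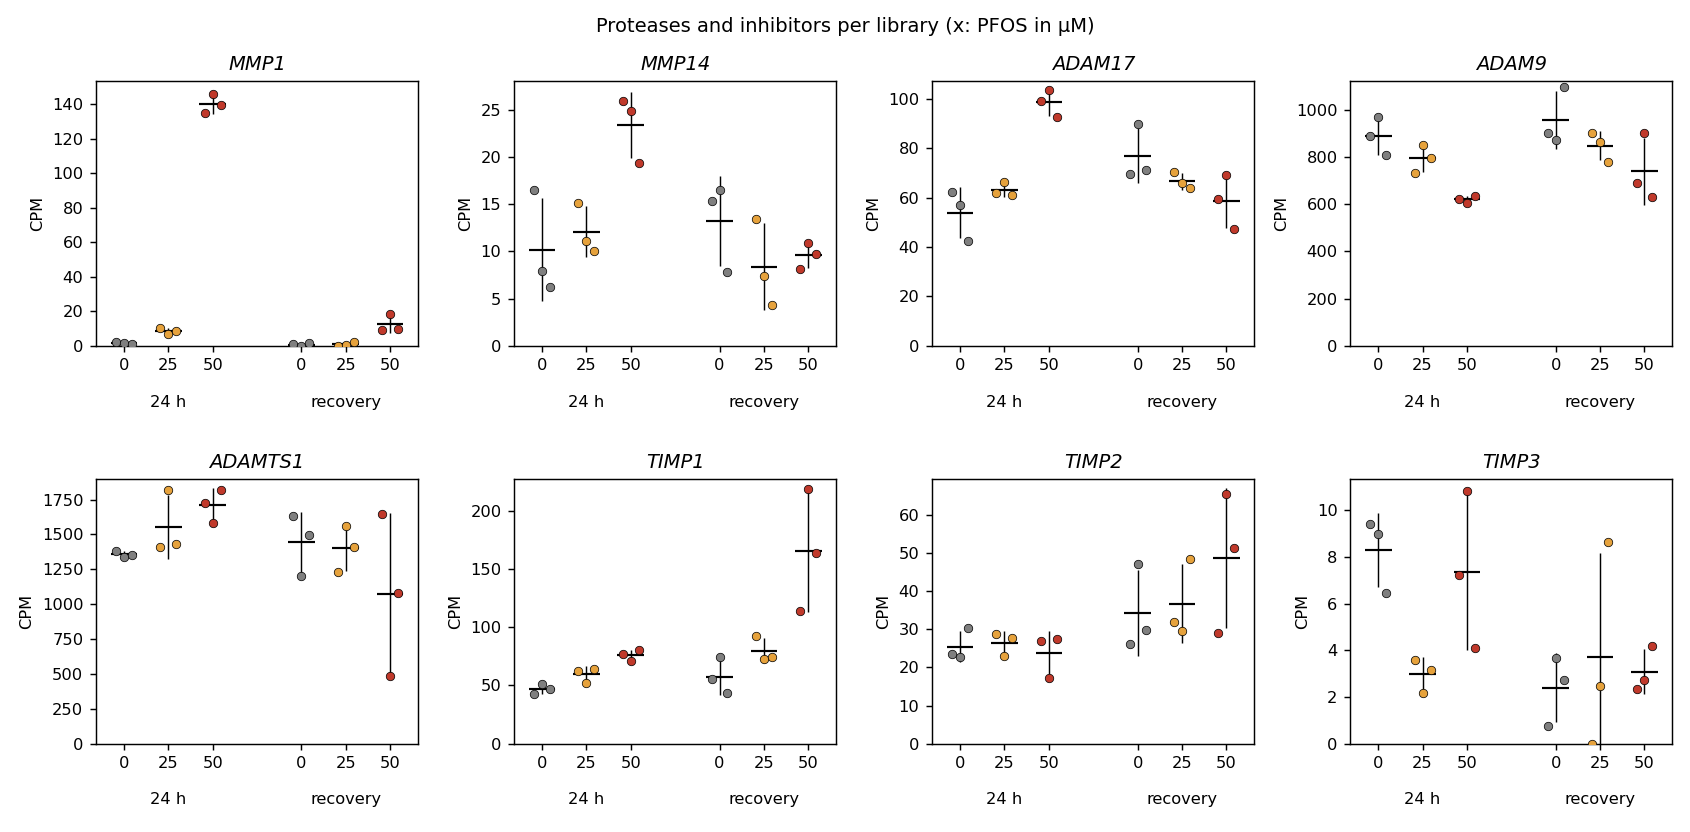
Level of each tested gene in CPM (y axis, starting at 0) in the 18 libraries, by PFOS dose in µM (x axis) at 24 h and after recovery. Points are libraries, horizontal lines are means and vertical lines are SDs of 3 libraries. MMP1 reaches 135 to 146 CPM at 50 µM for 24 h, and TIMP1 is highest at 50 µM after recovery, at 114 to 219 CPM.

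MMP3, or stromelysin 1, degrades proteoglycans and can activate the precursor of MMP1. Its counts were 2, 2 and 6 at 50 µM PFOS for 24 h, and 0 in all 3 libraries of 25 µM and in all 3 of vehicle. The pooled level at 50 µM was 2.60 CPM (exact Poisson 95% interval 1.24 to 4.77, covering counting error only). This was 6.08-fold higher than vehicle when vehicle is set to a floor of 3 counts over the group. That fold leaves out the counting error at 50 µM, so it is not a lower limit. After recovery MMP3 had 1, 2 and 0 counts at 50 µM, 1, 0 and 1 counts at 25 µM and 0 counts in the 3 vehicle libraries. It did not pass the filter on low counts. With no filter it passed the test at 50 µM against vehicle at 24 h (adjusted p = 0.00525) but not after recovery (adjusted p = 0.0908, both edgeR). That pass carries little weight, since the fit with no filter gave far smaller p-values on the same counts. For MMP1 at 50 µM for 24 h the adjusted p was 3.82e-67 with no filter and 1.76e-10 with it (edgeR).

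MMP2, a gelatinase that is activated at the cell surface by MMP14 together with TIMP2, was below the filter in all groups. At 24 h it had 2, 2 and 13 counts in vehicle, 5, 13 and 5 counts at 25 µM PFOS and 2, 0 and 1 counts at 50 µM PFOS. After recovery the counts were 3, 1 and 4 in vehicle, 0, 11 and 0 at 25 µM and 3, 0 and 0 at 50 µM. At 24 h the 25 µM libraries, at 3.14 to 3.60 CPM, lay above those of 50 µM, at 0 to 2.07 CPM, while vehicle overlapped both, and after recovery all groups overlapped. Pooled over libraries, MMP2 was at 0.779 CPM at 50 µM for 24 h (95% interval 0.161 to 2.28) and at 2.42 CPM in vehicle (1.41 to 3.88). MMP1 and MMP3 belong to a row of metalloproteinase genes on chromosome 11, where MMP1 spans 102789919 to 102798160 and MMP3 spans 102835801 to 102843609 (GRCh38.p14). Of their 7 listed neighbours in that row, MMP7, MMP20 and MMP27 had 0 counts in all 18 libraries, MMP8 and MMP12 had 1 count each and MMP10 and MMP13 had 2 counts each. The pseudogene WTAPP1, which contains MMP1 and overlaps MMP3, had 1 count in all.

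MMP14, the membrane-type collagenase MT1-MMP, activates MMP2 at the cell surface and cuts collagen around the cell. Its levels at 24 h were 16.5, 7.93 and 6.18 CPM in vehicle, 15.1, 11.1 and 10.1 CPM at 25 µM PFOS and 25.9, 24.9 and 19.4 CPM at 50 µM PFOS. All 50 µM libraries were above all of the other 6. MMP14 rose by 1.39 ± 0.36 on the log2 scale at 50 µM against vehicle (2.62-fold, adjusted p = 0.0088, edgeR, n = 3 per group), and the 25 µM change was 0.44 ± 0.36 (adjusted p = 0.837, edgeR). After recovery the levels were 15.3, 16.5 and 7.78 CPM in vehicle, 13.4, 7.37 and 4.32 CPM at 25 µM and 8.14, 10.9 and 9.72 CPM at 50 µM. These 3 groups overlapped, and the change at 50 µM was -0.46 ± 0.40 (adjusted p = 0.421, edgeR). The effect of 50 µM after recovery was thus lower than the effect at 24 h by 1.85 ± 0.53 on the log2 scale (adjusted p = 0.021, edgeR interaction term). The counts behind these levels were 4 to 63 per library, and the 24 h call was lost without vehicle replicate 2 (adjusted p = 0.0548) or 3 (adjusted p = 0.0781), the interaction without either of these or vehicle replicate 2 after recovery (adjusted p up to 0.0727, edgeR).

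ADAM17 is the sheddase that releases tumour necrosis factor and ligands of the epidermal growth factor receptor. At 24 h it had 62.3, 56.9 and 42.4 CPM in vehicle, 61.9, 66.4 and 61.0 CPM at 25 µM PFOS and 99.4, 104 and 92.8 CPM at 50 µM PFOS. The 50 µM libraries were above all of the others, while 25 µM overlapped vehicle. ADAM17 rose by 0.90 ± 0.18 on the log2 scale at 50 µM against vehicle (1.86-fold, adjusted p = 0.000962, edgeR, n = 3 per group). It was 0.64 ± 0.17 higher at 50 µM than at 25 µM (adjusted p = 0.026, edgeR), a call that was lost when any 1 of the 6 libraries was left out (adjusted p = 0.0514 to 0.103, edgeR). After recovery ADAM17 had 69.7, 89.9 and 71.4 CPM in vehicle, 70.4, 65.9 and 63.7 CPM at 25 µM and 59.3, 69.2 and 47.2 CPM at 50 µM. The 50 µM libraries were then all below those of vehicle, but the change of -0.39 ± 0.18 did not pass the test (adjusted p = 0.11, edgeR). The effect of 50 µM after recovery was lower than the 24 h effect by 1.29 ± 0.25 on the log2 scale (adjusted p = 0.00232, edgeR interaction term), a call that was kept without any 1 library of the 4 groups. ADAM17 overlaps IAH1 in the genome, and strand was not marked, so reads of the shared stretch cannot be told apart. IAH1 had 19, 21 and 42 counts at 50 µM for 24 h and 27, 60 and 65 counts in vehicle. These counts are not scaled for depth, and so do not show a fall of IAH1. Total counts were 967960, 973434 and 1931726 at 50 µM and 882883, 2753911 and 3435906 in vehicle. After recovery IAH1 had 28, 87 and 57 counts at 50 µM and 18, 81 and 50 counts in vehicle. Total counts there were 841252, 1228047 and 755905 at 50 µM and 1319266, 3982818 and 2151038 in vehicle. IAH1 thus took a larger share of the counts at 50 µM after recovery. What its reads add to the ADAM17 counts at either time was not tested.

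ADAM9, a widely expressed membrane protease, was read deeply, with 454 to 3867 counts per library. At 24 h the levels were 889, 969 and 810 CPM in vehicle, 733, 851 and 797 CPM at 25 µM PFOS and 621, 606 and 636 CPM at 50 µM PFOS. The 50 µM libraries lay below all of the others. ADAM9 fell by 0.52 ± 0.14 on the log2 scale at 50 µM against vehicle (adjusted p = 0.0136, edgeR, n = 3 per group), and this call was lost without vehicle replicate 2 (adjusted p = 0.0738, edgeR). After recovery it had 899, 872 and 1100 CPM in vehicle, 900, 863 and 779 CPM at 25 µM and 688, 899 and 631 CPM at 50 µM, and the 50 µM libraries overlapped vehicle. The change at 50 µM after recovery was -0.37 ± 0.14 (adjusted p = 0.0568, edgeR). Without 50 µM replicate 2 it was -0.54 and passed the test (adjusted p = 0.00489, edgeR). ADAM9 overlaps TM2D2, a neighbour with 2859 counts in all.

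ADAMTS1 is a secreted protease that cuts the proteoglycans aggrecan and versican. No PFOS group passed the test against its vehicle. At 24 h it had 1728, 1581 and 1821 CPM at 50 µM PFOS and 1384, 1339 and 1355 CPM in vehicle. The groups did not overlap, but the change of 0.33 ± 0.26 did not pass (adjusted p = 0.405, edgeR, n = 3 per group). After recovery it had 1646, 483 and 1078 CPM at 50 µM and 1634, 1205 and 1493 CPM in vehicle, and replicate 2 of 50 µM, the library with the highest ribosomal share, was the lowest of all 18. The recovery change was -0.43 ± 0.26 (adjusted p = 0.216), -0.08 without that replicate and -0.90 without replicate 1, the last of which passed (adjusted p = 0.00236, edgeR). Without the 3 recovery libraries of 50 µM, the 24 h change of 0.33 passed (adjusted p = 0.0471, edgeR).

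TIMP1 is a secreted inhibitor of most soluble metalloproteinases. At 24 h it had 42.3, 51.5 and 46.5 CPM in vehicle, 62.7, 51.8 and 64.2 CPM at 25 µM PFOS and 76.6, 71.4 and 80.6 CPM at 50 µM PFOS. The order followed the dose with no overlap, the closest pair being 51.8 CPM at 25 µM and 51.5 CPM in vehicle. At 24 h TIMP1 rose by 0.69 ± 0.22 on the log2 scale at 50 µM against vehicle (adjusted p = 0.0339, edgeR, n = 3 per group), but the call was lost when any 1 of the 6 libraries was left out (adjusted p = 0.0573 to 0.107, edgeR). After recovery TIMP1 had 55.2, 74.2 and 43.5 CPM in vehicle, 92.2, 72.8 and 74.5 CPM at 25 µM and 114, 219 and 164 CPM at 50 µM. The 50 µM libraries were the 3 highest of all 18. Here TIMP1 rose by 1.51 ± 0.21 on the log2 scale at 50 µM against vehicle (2.85-fold, adjusted p = 4.29e-05) and was 1.08 ± 0.22 higher than at 25 µM (adjusted p = 0.00168, both edgeR). Within these 3 libraries TIMP1 was highest in replicate 2 and lowest in replicate 1, which is also their order of ribosomal share. MMP1, MMP14 and TIMP2 had the same order, ADAMTS1 had the reverse, and ADAM9, ADAM17 and TIMP3 followed neither. Without replicate 2 the change against vehicle was 1.23 (adjusted p = 0.000102, edgeR). The effect of 50 µM after recovery exceeded the 24 h effect by 0.82 ± 0.31, which did not pass the test (adjusted p = 0.0654, edgeR), although without 50 µM replicate 1 after recovery it was 1.03 and did (adjusted p = 0.00591, edgeR).

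TIMP2, which inhibits MMP2 and also links its precursor to MMP14, did not pass the test in any comparison of PFOS with vehicle. It lay at 17.3 to 27.5 CPM at 50 µM and 22.7 to 30.3 CPM in vehicle at 24 h, and at 29.1 to 65.6 CPM at 50 µM and 26.0 to 47.2 CPM in vehicle after recovery, with overlap at both times. Its log2 change was -0.09 ± 0.30 at 50 µM for 24 h (95% interval -0.75 to 0.57) and 0.47 ± 0.28 after recovery (-0.14 to 1.08). Without 50 µM replicate 1 the recovery change was 0.72 and passed (adjusted p = 0.0331, edgeR). TIMP3 stays bound to the matrix and inhibits ADAM17 as well as metalloproteinases. It had 0 to 25 counts per library. Levels at 24 h were 9.41, 9.01 and 6.48 CPM in vehicle, 3.60, 2.16 and 3.14 CPM at 25 µM PFOS and 7.24, 10.8 and 4.08 CPM at 50 µM PFOS. The 25 µM libraries lay below all of the others, but the change of -1.51 ± 0.50 against vehicle did not pass (adjusted p = 0.233, edgeR), and with a fit to these libraries alone it did (adjusted p = 0.0314, edgeR).

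Between the vehicle groups of the 2 times, 0 of the 8 tested members were called by edgeR and by DESeq2, and 2 had an unadjusted p under 0.05 in edgeR, which called 0.975% of all genes. The widest change was that of TIMP3, at -1.50 ± 0.49 after recovery against 24 h (adjusted p = 0.165, edgeR). ADAM17 was 0.55 ± 0.17 higher after recovery than at 24 h (adjusted p = 0.145, edgeR). In the interaction term, recovery effect minus 24 h effect, 2 members were called lower at 50 µM, MMP14 and ADAM17, where 19.1% of all genes were called. At 25 µM 0 members were called by edgeR and by DESeq2, and 2 had an unadjusted p under 0.05 in edgeR, which called 0.0203% of all genes.

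The counts of a protease were set against those of an inhibitor in the same library, a quantity that does not depend on how libraries are scaled. It is a ratio of counts that is not adjusted for transcript length, so it can be compared between libraries but is no ratio of molecules. MMP1 had 176, 205 and 173 counts per 100 counts of TIMP1 at 50 µM PFOS for 24 h, and 5.56, 3.50 and 2.53 in vehicle. At 25 µM it had 16.1, 13.5 and 13.7. The groups of the 3 doses did not overlap, and the smallest p that an exact two-sided permutation test of 3 against 3 libraries can give, 0.1, was reached for both doses. After recovery the ratio was 8.16, 8.33 and 5.93 per 100 at 50 µM, 0, 0.613 and 2.90 at 25 µM and 1.39, 0 and 3.16 in vehicle (exact permutation p = 0.1 at 50 µM and 0.9 at 25 µM against vehicle). At 50 µM the ratio after recovery was below all 3 values at 24 h. MMP1 lay at 9.30 to 18.2 CPM after recovery against 135 to 146 CPM at 24 h, and TIMP1 at 114 to 219 CPM against 71.4 to 80.6 CPM.

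**Figure D3:**
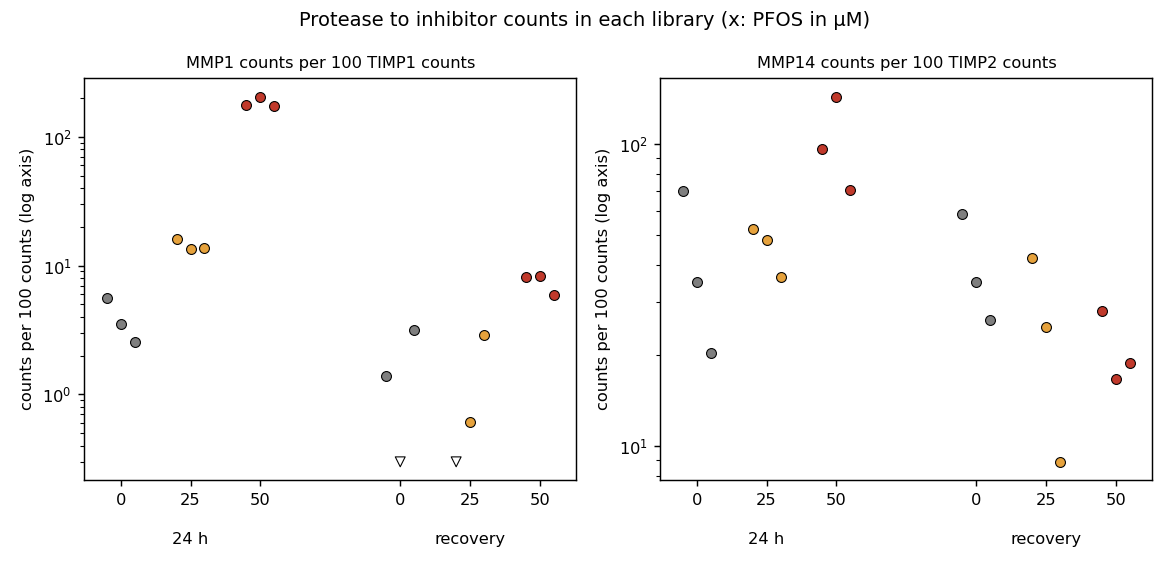
Counts of MMP1 per 100 counts of TIMP1 (left) and of MMP14 per 100 counts of TIMP2 (right) in each library, on log axes, by PFOS dose in µM at 24 h and after recovery. Open triangles at the lower edge mark libraries with 0 counts of MMP1. At 50 µM for 24 h the left ratio is 173 to 205, above every other library.

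For MMP14 and TIMP2, which act together in the activation of MMP2, the ratio was 96.2, 144 and 70.4 per 100 at 50 µM PFOS for 24 h and 70.0, 34.9 and 20.4 in vehicle, and it was 52.5, 48.2 and 36.4 at 25 µM. The 50 µM values were all above those of vehicle by a narrow gap, 70.4 against 70.0, which closed into an overlap once 0.5 was added to each count for the test (exact permutation p = 0.2). After recovery it was 28.0, 16.7 and 18.9 per 100 at 50 µM and 58.8, 35.0 and 26.2 in vehicle (exact permutation p = 0.2), and 42.1, 24.8 and 8.89 at 25 µM. The recovery groups overlapped.

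The wider families were read from gene lists. Of 23 metalloproteinase genes, 7 had 0 counts in all libraries and 4 were tested. At 50 µM for 24 h, where 9.18% of all genes were called higher, 3 of these 4 rose, MMP1, MMP14 and MMP25, a membrane-anchored enzyme best known from leukocytes, which was at 16.1 ± 4.18 CPM against 6.97 ± 0.445 CPM in vehicle (SD, n = 3 each) and 1.15 ± 0.39 higher on the log2 scale (adjusted p = 0.0412, edgeR). The median log2 change of the 4 was 1.27, beside 0.01 over all genes. MMP1 passed the filter on low counts through libraries of PFOS alone, so the 3 of 4 and this median were partly set by the filter. The effect on MMP25 was also lower after recovery than at 24 h, by 1.81 ± 0.60 (adjusted p = 0.0382, edgeR). Of 6 inhibitor genes 4 were tested, and TIMP1 was the 1 called at 50 µM at either time, with medians of -0.16 for 24 h and 0.29 after recovery. This share is near that of all genes called, 18.8% for 24 h and 28.4% after recovery. TIMP4 had 1 count each in the groups of 50 µM for 24 h, 25 µM after recovery and 50 µM after recovery, and 0 in the others.

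Among 12 ADAM genes, 6 were tested. At 50 µM for 24 h, ADAM17 rose and 3 fell (median -0.17), where 9.18% of all genes were called higher and 9.59% lower. These were ADAM9, ADAM10, the sheddase of Notch receptors, by 0.62 ± 0.15 (adjusted p = 0.00719), and ADAM19 by 0.91 ± 0.24 (adjusted p = 0.0103, both edgeR). After recovery ADAM19 was the 1 of 6 called at 50 µM, a smaller share than the 28.4% of all genes, and fell by 1.48 ± 0.26 (adjusted p = 0.000238, edgeR). Among 19 ADAMTS genes, 6 were tested. At 50 µM for 24 h ADAMTS6 rose by 1.11 ± 0.25 (adjusted p = 0.00301) and ADAMTS16 by 1.28 ± 0.27 (adjusted p = 0.0022), while ADAMTS3, which trims the propeptide of procollagen, fell by 1.56 ± 0.43 (adjusted p = 0.0144, all edgeR), 3 of 6 called beside 18.8% of all genes.

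**Figure D4:**
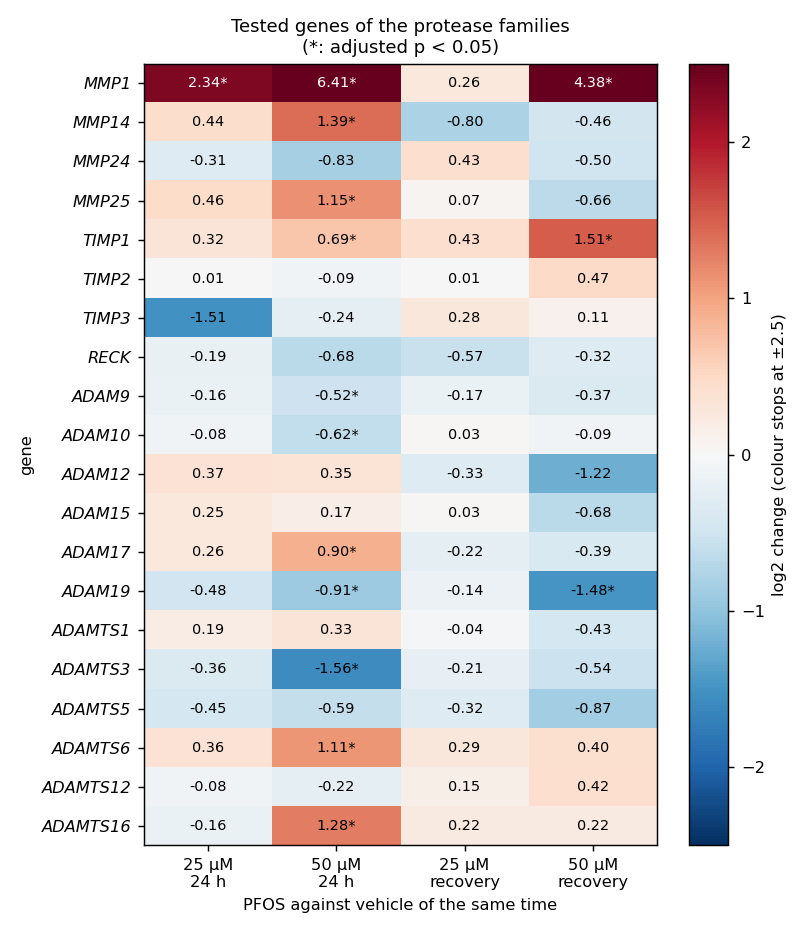
Log2 change of the tested metalloproteinase, inhibitor, ADAM and ADAMTS genes (rows) in the 4 comparisons of PFOS with vehicle of the same time (columns), on a colour scale that stops at 2.5 on either side. Asterisks mark an adjusted p under 0.05 in edgeR. MMP1, MMP14, MMP25, ADAM17, ADAMTS6, ADAMTS16 and TIMP1 rise in the column of 50 µM for 24 h, where ADAM9, ADAM10, ADAM19 and ADAMTS3 fall.

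Of 7 genes for activation of metalloproteinases, 4 were tested. After recovery from 50 µM PLAU, the urokinase that starts the plasmin cascade, was the 1 called and rose by 1.04 ± 0.22 (adjusted p = 0.00125, edgeR), a share near the 28.4% of all genes. PLAU was also 0.92 ± 0.21 lower in vehicle after recovery than in vehicle at 24 h (adjusted p = 0.0398). Its change at 50 µM for 24 h was 0.45 (adjusted p = 0.137), and the difference between the 2 effects did not pass (0.58, adjusted p = 0.18, all edgeR). Of 8 partners of ADAM17 and ADAM10, 7 were tested. The tetraspanin TSPAN17 fell by 0.87 ± 0.26 at 50 µM for 24 h (adjusted p = 0.0236) and TSPAN14, which escorts ADAM10 to the surface, fell by 0.57 ± 0.20 at 50 µM after recovery (adjusted p = 0.0341, both edgeR). Each was the 1 of 7 called, a smaller share than the 18.8% and 28.4% of all genes called at these times. Of 11 ADAM17 substrates 2 had enough counts, the growth factor HBEGF and the receptor TNFRSF1A. At 25 µM for 24 h, where 1.24% of all genes were called, HBEGF fell by 0.79 ± 0.17 (adjusted p = 0.0172, edgeR). The change of TNFRSF1A there was 0.37 ± 0.27 (adjusted p = 0.8, edgeR). The change of HBEGF at 50 µM for 24 h was -0.13 (adjusted p = 0.649, edgeR). HBEGF was 0.66 ± 0.17 higher at 50 µM than at 25 µM (adjusted p = 0.0188, edgeR), where 7.4% of all genes were called. Of 13 AP-1 and ETS transcription factors 12 were tested and 3 rose at 50 µM for 24 h, where 9.18% of all genes were called higher. They were the AP-1 subunit FOSL1 by 1.35 ± 0.15 (adjusted p = 2.03e-06) and the ETS factors ETV4 by 1.54 ± 0.22 (adjusted p = 4.07e-05) and ETV5 by 0.78 ± 0.18 (adjusted p = 0.00369, all edgeR). The list's median was 0.40. After recovery from 50 µM FOSL1 was the 1 of 12 called, a smaller share than the 28.4% of all genes, rising by 0.68 ± 0.16 (adjusted p = 0.00321, edgeR). For FOSL1 the recovery effect minus the 24 h effect was -0.67 ± 0.22 at 50 µM (adjusted p = 0.0368, edgeR). FOSL1 and ETS2 were the 2 of 12 called in that term, beside 19.1% of all genes. FOS and FOSB were 1.18 ± 0.22 and 1.46 ± 0.29 higher in vehicle after recovery than at 24 h (adjusted p = 0.0097 and 0.0167, edgeR). They were the 2 of 12 called between the vehicle groups, beside 0.975% of all genes.

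The 5 genes whose log2 CPM followed MMP1 most closely over the 18 libraries were PLAUR, the receptor of urokinase (Pearson r 0.965), CD44, the hyaluronan receptor (0.961), NT5E, an enzyme that makes adenosine outside the cell (0.960), the pseudogene RPLP0P2 (0.948) and HMGA2, a chromatin protein (0.931). These libraries share the contrast of 50 µM with the rest, so the values describe likeness across 6 groups. PLAUR was 2.43 ± 0.17 higher on the log2 scale at 50 µM than in vehicle at 24 h (adjusted p = 4.18e-09) and 1.17 ± 0.18 higher after recovery (adjusted p = 8.96e-05, both edgeR). RPLP0P2 had means of 124 ± 13.4 CPM at 50 µM and 1.70 ± 0.496 CPM in vehicle at 24 h (SD, n = 3 each), and it is uncertain how reads were divided between it and the ribosomal gene it resembles. The genes closest to ADAM9 were PLS3 (0.908), PTPLAD1 (0.905), HIAT1 (0.890), FZD6 (0.890) and OXCT1 (0.890). Those closest to MMP14 were OSBP (0.852), SH2B3 (0.845), NAGK (0.816), THG1L (0.813) and TMEM209 (0.811).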

How the data were processed

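RNA-seq libraries numbered 18, and 18 H3K27ac CUT&Tag libraries of the same groups were not analysed here. Per the labels' protocols, 100 ng of total RNA was selected for poly(A) and made into libraries by Smart-seq2, which amplifies cDNA with no molecular identifiers and leaves strand unmarked, so counting intervals and floors cover counting error only. Raw counts per gene symbol were deposited by the authors without any normalization, and the file headers give 1 column to each library. Trimmomatic, STAR and DESeq2 with the builds GRCh38 and hg38 are named per the submitters' processing notes. How reads were assigned to genes, on which annotation and with which strand rule, and all tool versions, are not stated in the sources used here. All columns matched a library's labels (0 columns without a sample).

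Tests used edgeR 4.0.16 under R 4.3.3. The filterByExpr function with a minimum count of 10 kept 9847 genes, which hold 99.2% of the counts, libraries were scaled by TMM, and the 18 libraries entered 1 quasi-likelihood fit with a mean for each group. P-values are two-sided, adjusted by Benjamini-Hochberg over all tested genes, with a threshold of 0.05, and log2 changes carry their SE. Single count ratios were compared by exact permutation tests after adding 0.5 counts. The median biological coefficient of variation was 16.0%. Replicates differed by more than counting noise, with a chi-square per degree of freedom of 1.29 to 21.4, so each library was counted.

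The 10 genes and the lists were chosen with earlier results of these data known. Per-library values are given for genes called in any comparison and for those below the filter, family genes are named where called against vehicle, and likeness to MMP1, ADAM9 and MMP14, the last 2 being the called genes with the largest fall and the largest other rise at 50 µM for 24 h, was ranked by Pearson's r over 18 libraries. Alternatives were DESeq2 1.42.0 as test and as scaling, no filter and a stricter one, a fit to the libraries of 1 comparison alone, counts thinned to 582233 per library, a replicate block and leaving out each library in turn; a fit without the 3 recovery libraries of 50 µM was added after seeing the data. Reads of genes that overlap cannot be told apart. RefSeq tables on GRCh38.p14 supplied positions and promoter windows, and all 10 symbols matched the positions.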

Additional observations from a re-analysis of the deposited data

Results flagged for a closer look

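The effect of 50 µM PFOS against vehicle differed between the times for MMP14 and ADAM17, by the interaction term of the edgeR model. For MMP14 the recovery effect minus the 24 h effect was -1.85 on the log2 scale (adjusted p = 0.021), from changes of -0.46 after recovery and 1.39 at 24 h. For ADAM17 it was -1.29 (adjusted p = 0.00232), from changes of -0.39 after recovery and 0.90 at 24 h. Both differences hold the vehicle groups of both times, in which ADAM17 was 0.55 ± 0.17 and MMP14 0.61 ± 0.35 higher after recovery than at 24 h (adjusted p = 0.145 and 0.494, edgeR), and the 3 recovery libraries with a high ribosomal share. Without any 1 of these 3 libraries the difference was -1.76 to -1.99 for MMP14 and -1.16 to -1.44 for ADAM17, and both calls were kept. The MMP14 call was lost without vehicle replicate 2 or 3 at 24 h, or without vehicle replicate 2 after recovery. In this term 2 of 8 tested members were called, beside 19.1% of all genes.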

How the results depend on the processing

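Of the counts of called members, 112 were unchanged or within 1.5 times under the alternatives, 17 were lower and 6 higher. Log2 changes of called members kept their side of the threshold in 174 cases and lost it in 25, and none reversed. For 25 µM against vehicle at 24 h the count was 1, 2 in the fit to its own libraries, 0 in thinned counts and 0 to 1 when a library was left out. For 50 µM against vehicle at 24 h it was 5, 3 in thinned counts and 2 to 4 with a library left out, 2 without vehicle replicate 2 and 3 without vehicle replicate 3. For 50 µM after recovery it was 2, and 2 to 4 with a library left out, 4 without 50 µM replicate 1, where ADAMTS1 and TIMP2 were added. Between doses at 24 h it was 2, 4 in the own fit, 1 in thinned counts and 1 whichever library was left out. Between doses after recovery it was 2, 0 in the own fit, which called 0 genes in all, and 2 to 4 with a library left out. For the difference of the 50 µM effects it was 2, 1 in thinned counts and 1 to 4 with a library left out. For vehicle across times it was 0, and 1 (ADAM17) without the 3 recovery libraries of 50 µM. The cause was not tested, apart from thinning, which lowers all counts.

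Replicate numbers did not pair the libraries, since deviations of same-numbered libraries correlated between -0.338 and 0.394. With the replicate number as a block the counts were 1, 5, 0 and 2 against vehicle, 3 and 2 between doses, 0 and 2 for the differences of effects and 0 for vehicle. Over all genes the block moved vehicle across times to 54 calls, against 96. Calls over all genes also depended on the fit. At 25 µM for 24 h they were 122, 416 with its own libraries, 285 without the 3 recovery libraries of 50 µM, 54 thinned and 49 to 75 with a library left out. At 50 µM for 24 h they were 1848, 2860, 2828, 1165 and 1139 to 1707 in the same order, and between doses at 24 h 729, 1932, 1544, 435 and 347 to 541. At 50 µM after recovery there were 2800, 864 with its own libraries and 1600 to 4074 with a library left out, and between doses after recovery 2172, 0 and 931 to 3766. For the difference of the 50 µM effects there were 1878, 1022 with its own libraries, 1104 thinned and 1188 to 3314 with a library left out, and for that of 25 µM 2, 34 by DESeq2, 10 with no filter, 35 with its own libraries and 48 without the 3 libraries. Vehicle across times had 96, 152 by DESeq2, 224 with no filter, 433 without the 3 libraries, 29 thinned and 12 to 72 with a library left out. At 25 µM after recovery there were 0, 3 by DESeq2, 5 with no filter and 9 without the 3 libraries. Depth limits MMP2, MMP3 and TIMP3, with at most 25 counts per library.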
